A study of Pyrus pyrifolia with 6 samples.

Results

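The omega-hydroxypalmitate O-feruloyl transferase-like genes of pear fruit skin are the subject of this section. They are 5 of the 42966 genes in the deposited table, i.e., 103964024, 103938506, 103966555, 103936171 and 103936111, chosen because the study assigned them to this enzyme among its differentially expressed genes between russet and green skin. Genes are named below by their NCBI locus name, which puts LOC before the identifier of the table. The russet skin came from the sand pear (*Pyrus pyrifolia*) ‘Niitaka’ and the green skin from ‘Suisho’, a bud mutant of it, both labelled 80 DAA and both from healthy plants grown in the open. Each line had 3 RNA-Seq libraries, A1 to A3 for russet and B1 to B3 for green skin, and each sample combined 10 fruits. Since 1 mutant line was set against its parent, an effect of the skin type and any other difference between these lines cannot be told apart.

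The enzyme belongs to the BAHD acyltransferases, a large plant family that moves acyl groups from coenzyme A to alcohols and amines. It carries the feruloyl group from feruloyl-CoA, a product of the phenylpropanoid pathway, to the terminal hydroxyl of omega-hydroxypalmitic acid and related long-chain hydroxy acids. Ferulate bound in this way is a typical constituent of suberin, the polyester of cork cell walls, and in Arabidopsis and potato the loss of the corresponding enzyme removes most ester-bound ferulate from suberin. Russet pear skin is covered by a corky periderm and green skin by a cuticle, so that the question for these genes is how much of each transcript the skins held and which gene supplied most of it.

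The level of a gene is given as FPKM, the fragments on the gene scaled by its length and by the mapped fragments of the library, so levels of different genes are comparable per length. The 6 libraries rested on 31381552 to 42729578 reads. All 5 genes passed the filter for testing, an average of at least 0.1 FPKM over the 6 libraries, as did 30161 genes in all. Because the genes were picked from the russet against green contrast, their differences between the lines are given as a description, without a test. In whole skin, fewer cells that express a gene and less RNA per cell cannot be told apart.

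The most abundant gene in russet skin was LOC103964024, on the minus strand of scaffold NW_008988297.1 from 106101 to 109834. It had 78.9 FPKM in A1, 41.6 in A2 and 43.8 in A3, against 1.22 FPKM in B1, 1.11 in B2 and 0.704 in B3. A1 stood above the other russet libraries, and all green libraries lay far below. The highest library was 1.89 times the lowest in russet and 1.73 times in green skin. Russet skin averaged 54.8 ± 20.9 FPKM (SD, n = 3) and green skin 1.01 ± 0.273 FPKM (SD, n = 3), which is a 54.1-fold ratio, and the lowest russet value was still 34.1 times the highest green value. These levels rested on 13099 reads in russet and 234 reads in green skin. Of the 30161 genes that passed the filter, 7.82% had a higher mean level in russet skin than this gene, against 77.3% in green skin.

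Gene LOC103938506 on the plus strand of NW_008988981.1 from 54509 to 56830 was the one with a clear level in both skins. Its russet values were 26.9, 19.4 and 31.7 FPKM in A1, A2 and A3, and its green values 5.09, 5.18 and 7.07 FPKM in B1, B2 and B3. The lines did not overlap, but the lowest russet value was only 2.75 times the highest green value, the smallest gap among the 5 genes. The means were 26.0 ± 6.17 and 5.78 ± 1.12 FPKM (SD, n = 3), a 4.50-fold ratio. In green skin it stood at the middle of the transcriptome, with 50.5% of the genes above it.

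Gene LOC103966555 on the plus strand of NW_008988356.1 from 41030 to 43018 had 22.1, 10.2 and 17.3 FPKM in A1, A2 and A3. In green skin it had 1.19 FPKM in B1, 1.20 in B2 and 0.304 in B3, where B3 rested on 16 reads. B3 thus lay far below the other green libraries, and the 3.94-fold range over the green libraries was the widest of the 5 genes within a line. The means were 16.5 ± 5.97 and 0.896 ± 0.513 FPKM (SD, n = 3), i.e., 18.4-fold.

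Gene LOC103936111 on the minus strand of NW_008988793.1 from 126906 to 128829 had 15.8, 8.43 and 15.3 FPKM in A1, A2 and A3. Its green values were 0.298, 0.474 and 0.257 FPKM in B1, B2 and B3, from 60 reads together. A2 was the low library in russet skin and B2 the high one in green skin. The ratio of the means, 13.2 ± 4.11 to 0.343 ± 0.115 FPKM (SD, n = 3), was 38.4-fold.

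The least abundant gene in both skins was LOC103936171 on the plus strand of NW_008988796.1 from 141962 to 145691. Its russet values were 3.93, 1.93 and 1.56 FPKM in A1, A2 and A3. In green skin 8, 4 and 2 reads gave 0.0893, 0.0526 and 0.0296 FPKM in B1, B2 and B3, so that the 43.3-fold ratio of the means has a coarse denominator. The averages were 2.47 ± 1.28 and 0.0572 ± 0.0301 FPKM (SD, n = 3).

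**Figure D1:**
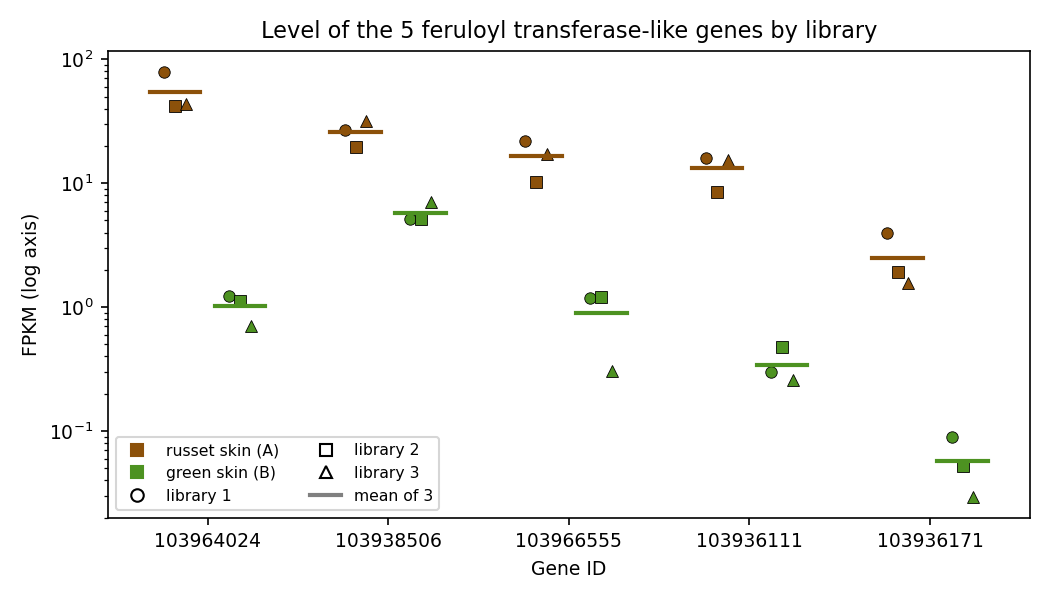
FPKM on a log axis for the 5 feruloyl transferase-like genes, ordered by their mean in russet skin, with each library as a point (brown for russet, green for green skin, the marker shape for the library number) and the mean of 3 libraries as a bar. The brown points lie above the green points in all 5 genes, and the gap is narrowest in LOC103938506, at 19.4 against 7.07 FPKM.

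On the scale of log2(FPKM + 0.1), on which all genes were fitted with limma, the differences of russet minus green were 5.59 (SE 0.30) for LOC103964024, 4.88 (SE 0.32) for LOC103936111, 4.17 (SE 0.51) for LOC103966555, 3.94 (SE 0.40) for LOC103936171 and 2.14 (SE 0.22) for LOC103938506. The median of the 5 was 4.17, beside 0.0032 over all 30161 genes. For genes other than the members, called means a limma adjusted p (Benjamini-Hochberg, two-sided) under 0.05, which 15.3% of all genes tested had, and such p-values measure only the spread between these samples. Of all 30161 genes tested, called or not, 71 had a larger difference than LOC103964024 and 954 a larger one than LOC103938506. The pseudocount of 0.1 FPKM compresses the difference of the least abundant gene most, and with limma voom on recovered reads LOC103936171 had 5.19. The russet libraries lay all above the green ones in 5 of the 5 genes, as they did in 17.2% of all genes tested, and the difference was at least 2 on the log2 scale in 5 of the 5, as in 3.5% of all genes tested. The study selected the genes on this contrast, so nothing is read from these counts.

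Summed over the 5 genes, russet skin had 148 FPKM in A1, 81.6 in A2 and 110 in A3, and green skin 7.89 in B1, 8.01 in B2 and 8.37 in B3. The russet sums spread widely and the green sums hardly at all, and the means of 113 ± 33.1 and 8.09 ± 0.248 FPKM (SD, n = 3) had a ratio of 14.0. Of the difference between these means, LOC103964024 made up 51.3%, LOC103938506 19.3%, LOC103966555 14.9%, LOC103936111 12.2% and LOC103936171 2.30%.

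The leading gene was not the same in both skins. In green skin, LOC103938506 held 64.6% of the sum in B1, 64.6% in B2 and 84.5% in B3. In russet skin its share was 18.2% in A1, 23.8% in A2 and 28.9% in A3, so that the ranges of the lines were far apart. Gene LOC103964024 showed the reverse, with 53.4%, 51.0% and 40.0% in A1, A2 and A3 and 15.5%, 13.9% and 8.41% in B1, B2 and B3. The share of LOC103936111 was also larger in each russet library, at 11.7 ± 1.96% against 4.26 ± 1.48% (SD, n = 3), and so was that of LOC103936171, at 2.15 ± 0.650% against 0.714 ± 0.392%. Gene LOC103966555 kept overlapping shares, 12.5% to 15.8% in russet and 3.64% to 15.1% in green skin. Shares of the recovered reads, which ignore gene length, gave the same leading genes, with 51.4 ± 7.24% for LOC103964024 in russet and 72.5 ± 10.9% for LOC103938506 in green skin (SD, n = 3).

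**Figure D2:**
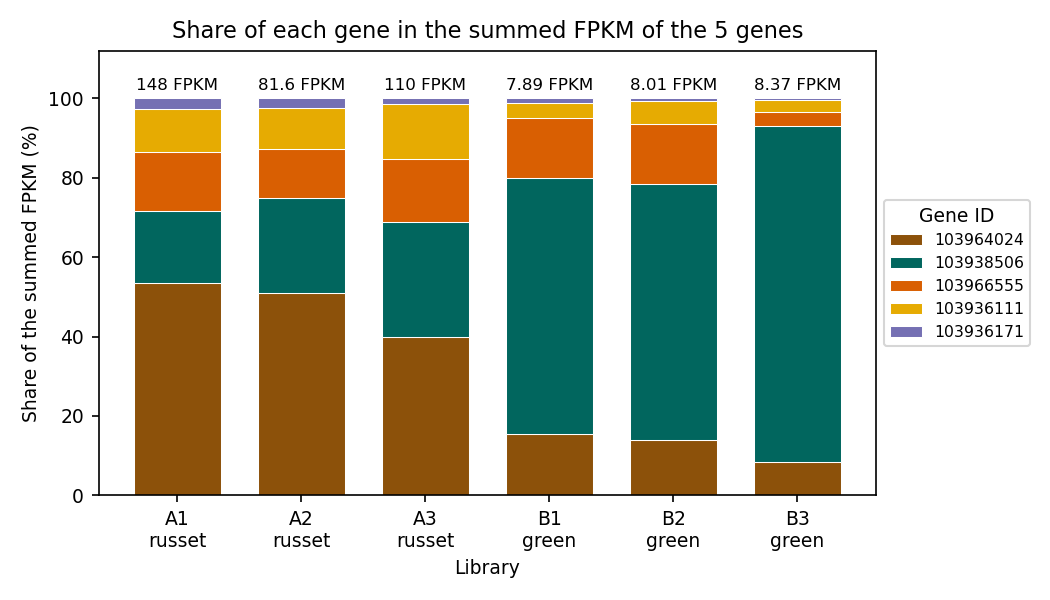
Stacked bars of the percent of the summed FPKM that each of the 5 genes held in each library, with the sum printed above each bar. The segment of LOC103938506 fills 64.6% to 84.5% of the green bars and 18.2% to 28.9% of the russet bars, whereas LOC103964024 fills 40.0% to 53.4% of the russet bars.

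The order by level within russet skin was LOC103964024, LOC103938506, LOC103966555, LOC103936111 and LOC103936171. The first and the second did not overlap, at 41.6 FPKM or more against 31.7 or less, and neither did the fourth and the fifth. The neighbours in between overlapped in range, as LOC103938506 went down to 19.4 FPKM and LOC103966555 up to 22.1 FPKM, and LOC103966555 down to 10.2 FPKM and LOC103936111 up to 15.8 FPKM. Within each russet library, however, the order was the same for all 5 genes. In green skin LOC103938506 came first without overlap, at 5.09 FPKM or more against 1.22 or less for LOC103964024. Genes LOC103964024 and LOC103966555 could not be ordered there, as their ratio within a library ran from 0.929 to 2.31. The last place of LOC103936171 was free of overlap in green skin as well.

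The genes fell into groups by features other than their level. In the pathway assignment of the study, LOC103964024 and LOC103936171 were matched to the same apple gene, LOC103437513, LOC103966555 and LOC103936111 to another, LOC103404168, and LOC103938506 alone to LOC103442116. The gene models were alike within each matched pair, but the bases outside the length did not set LOC103938506 apart from the second pair. Genes LOC103964024 and LOC103936171 spanned 3734 and 3730 bp, of which 1651 and 1580 bp lay outside the length used for FPKM, i.e., outside the exons counted. For LOC103966555 and LOC103936111 the spans were 1989 and 1924 bp with 313 bp outside the deposited length in each, and for LOC103938506 2322 bp with 335 bp. The deposited length of LOC103936111, 1611 bp, did not reproduce its FPKM. For this gene 24 other lengths fitted, and the nearest, 1610 bp, was used to recover reads. The sources used here do not say how reads that match several of these genes were assigned, so the values of similar members are uncertain to that extent.

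The ratio between members held steady over the libraries in some pairs and not in others. The level of LOC103964024 was 20.04, 21.6 and 28.2 times that of LOC103936171 in A1, A2 and A3 and 13.7, 21.2 and 23.7 times in B1, B2 and B3, so that the ranges of both lines overlapped and the ratio stayed similar while both levels differed many fold between the lines. Against LOC103936111 the ratio of LOC103964024 was 2.87 to 4.99 in russet and 2.35 to 4.10 in green skin, again with overlap. The ratio of LOC103964024 to LOC103938506 behaved otherwise, at 1.38 to 2.93 in russet and 0.0995 to 0.240 in green skin. For LOC103966555 and LOC103936111, matched to 1 apple gene, the ratio was narrow in russet skin, at 1.14 to 1.39, and wide in green skin, at 1.18 to 3.99.

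**Figure D3:**
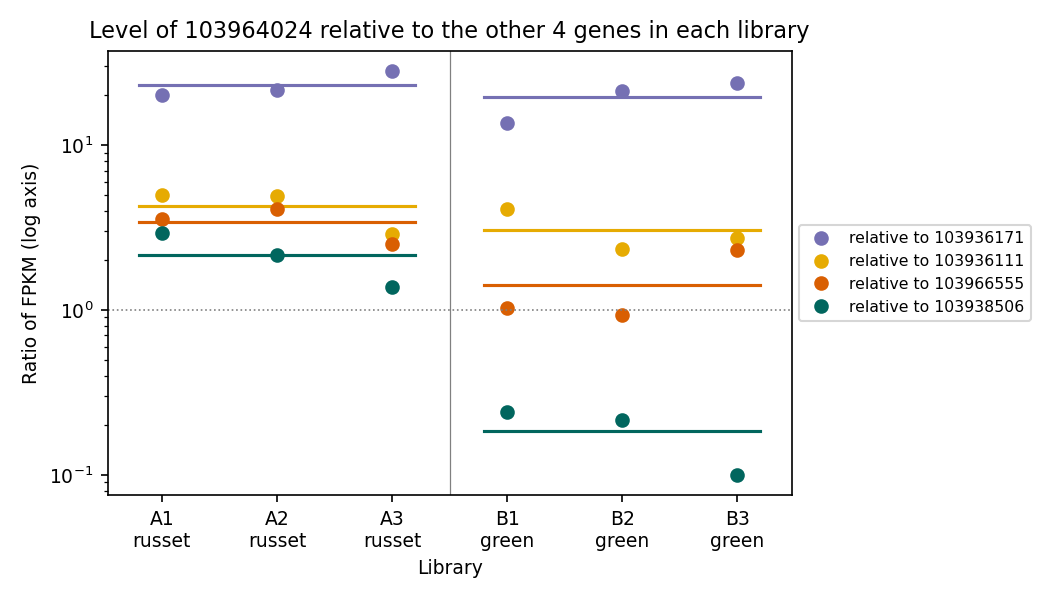
FPKM of LOC103964024 divided by the FPKM of each other member in each library, on a log axis, with the mean of each line as a bar and a dotted line at a ratio of 1. The points for LOC103936171 lie between 13.7 and 28.2 in all 6 libraries, and those for LOC103938506 cross the dotted line, from 1.38 to 2.93 in russet to 0.0995 to 0.240 in green skin.

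The spread between libraries of 1 line was shared by several members. The 6 libraries fall into the 2 lines, so no correlation over them was computed, and 3 libraries a line allow only a description. In russet skin A1 was the highest library for 4 of the 5 genes and A2 the lowest for 4. The exceptions were LOC103938506, highest in A3, and LOC103936171, lowest in A3. Among the 23838 genes that averaged 1 FPKM or more, A1 was highest in 32.3% and A2 lowest in 43.3%. All 5 members were higher in A1 than in A2, by 0.47 to 1.11 on the log2 scale, where the median difference was 0.04 over those genes and 0.11 over the 1870 of them called higher in russet skin. Of these 1870 genes, 61.6% were higher in A1 than in A2.

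In green skin B3 was the lowest library for 4 of the 5 genes, and it held the lowest number of reads. Gene LOC103966555 lay 1.12 below the mean of the line there on the log2 scale. The exception was LOC103938506, which had its highest green level in B3, 0.30 above the mean. B3 was the lowest green library in 25.3% of the genes that averaged 1 FPKM or more. Within russet skin, the deviations of LOC103966555 and LOC103936111 were the most alike, with a root mean square difference of 0.12, and within green skin those of LOC103964024 and LOC103936171, with 0.15. Both are pairs matched to 1 apple gene. The green value rests on 8, 4 and 2 reads of LOC103936171 in B1, B2 and B3. Their FPKM lie below the pseudocount of 0.1 FPKM, which shrinks the deviations, so no link to the apple gene is read from it. Over all 6 libraries, with the difference between the lines included, the closest pairs on this scale were matched to different apple genes. The root mean square difference was then 0.487 for LOC103964024 and LOC103936111 and 0.563 for LOC103966555 and LOC103936171. For the pairs matched to 1 apple gene it was 0.844 for LOC103964024 and LOC103936171 and 0.575 for LOC103966555 and LOC103936111. The green FPKM of LOC103936171 lie below the pseudocount of 0.1 FPKM, which compresses its difference between the lines. With a pseudocount of 0.01 FPKM this difference was 5.19, beside 5.72 for LOC103964024, against 3.94 and 5.59 with 0.1 FPKM. These distances therefore do not decide whether the grouping holds. Within the lines, the root mean square difference of the other pairs was 0.18 to 0.63 in russet and 0.29 to 1.00 in green skin. This leaves out 0.19 in russet for LOC103964024 and LOC103936171 and 0.63 in green for LOC103966555 and LOC103936111.

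**Figure D4:**
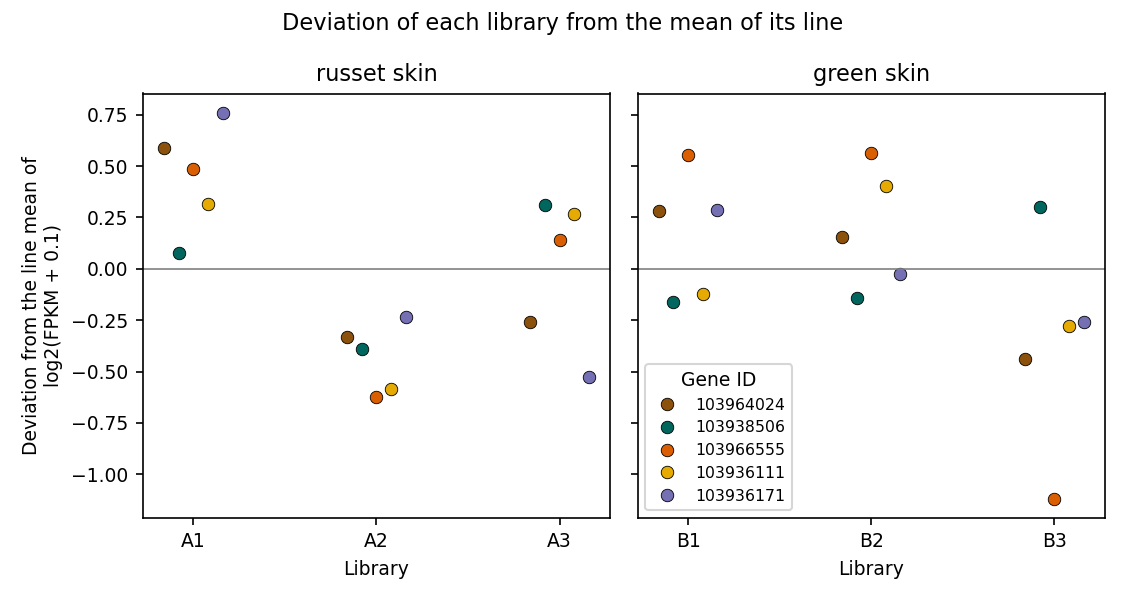
Deviation of log2(FPKM + 0.1) of each library from the mean of its line, russet on the left and green on the right, with a colour for each of the 5 genes. In A1 all points lie above 0 and in A2 all below 0, whereas in B3 LOC103938506 lies at 0.30 above and the other 4 genes lie below, down to 1.12 below.

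None of the 5 genes overlapped another annotated gene, and they lay on 5 different scaffolds. The 3 genes on each side of a member make 30 genes, of which 22 could be tested. Of the 22, 5 were called higher and 5 lower, where 8.05% and 7.29% of all 30161 genes were. The 5 higher ones were all beside LOC103936111 and included each of its neighbours that could be tested. Gene LOC103936112, next to it at a distance of 817 bp, had 5.80 ± 0.856 FPKM (SD, n = 3) in russet and 1.32 ± 0.0772 FPKM in green skin (2.04 on the log2 scale, SE 0.19, limma adjusted p = 0.000529). The others were LOC103936108 (1.79), LOC103936114 (1.33), LOC103936110 (1.11) and LOC103936113 (1.03), and the call of LOC103936110 (adjusted p = 0.0446) was lost in limma without a trend (adjusted p = 0.0618), with all genes kept (adjusted p = 0.0555) and without A1, A2, A3 or B3, up to 0.126. On the whole scaffold of LOC103936111, 12 of the 28 other genes tested were called higher and 2 lower (10 to 11 and 1 to 2 with 1 library left out), with a median log2 fold change of 0.52. Of these 28 genes, 1 had a larger difference than LOC103936111.

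The surroundings of the other members differed. Beside LOC103966555, 3 of the 4 genes tested were called lower, i.e., LOC103966552 with 25.2 ± 3.21 against 50.4 ± 5.63 FPKM (SD, n = 3, limma adjusted p = 0.00319), LOC103966553 with -0.72 (SE 0.14, limma adjusted p = 0.0137) and LOC103966556 with -0.56 (SE 0.14, limma adjusted p = 0.0401) on the log2 scale. The last of these calls was lost with any of the 6 libraries left out (adjusted p = 0.0750 to 0.130, limma). On that scaffold 2 of 58 other genes were called higher and 9 lower, with 5 lower when A2 or B1 was left out and 1 higher without A2. Of the genes around LOC103964024, LOC103964022 was without a read in russet skin and had 390 in green skin, i.e., it was at least 142-fold lower in russet skin when 3 reads in all russet libraries together are taken as the floor (limma adjusted p = 0.000217), and the other 3 tested were not called. Beside LOC103936171, LOC103936169 was lower, with 11.7 ± 1.96 against 36.7 ± 9.38 FPKM (SD, n = 3; -1.63 on the log2 scale, SE 0.21, limma adjusted p = 0.00217). None of the 5 genes tested beside LOC103938506 was called, with log2 fold changes of -0.51 to 0.33 and adjusted p-values of 0.124 to 0.961 (limma).

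**Figure D5:**
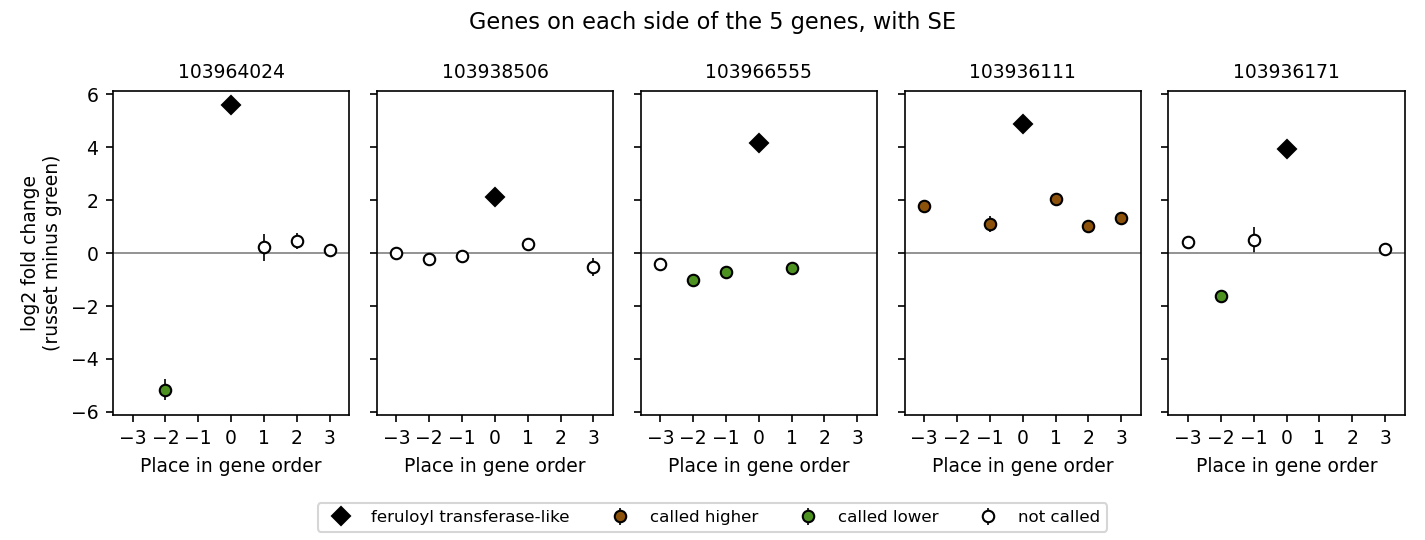
Log2 fold change, russet minus green, of the tested genes among the 3 on each side of each member, by place in gene order, with SE as error bars (brown for called higher, green for called lower, white for not called) and the member as a black diamond at 0. Only the panel of LOC103936111 has brown neighbours, 5 of them between 1.03 and 2.04. The point at -5.15 beside LOC103964024 belongs to LOC103964022, which had no russet read, so its height depends on the pseudocount.

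In the pathway assignment of the study, the row of cutin, suberine and wax biosynthesis holds 16 genes beside these 5. It was chosen on the same libraries and is no independent evidence of a direction. Of the 16, the limma fit called 6 higher and 9 lower in russet skin, and their median log2 fold change was -2.13. It was -2.21 with the 4 genes without a read in russet skin and the 2 without a read in green skin at the bound that 3 reads allow. The largest increase was that of LOC103943216, whose name is not in the sources used here, at 21.1 ± 5.43 against 0.506 ± 0.230 FPKM (SD, n = 3), 5.17 (SE 0.34, adjusted p = 0.000112, limma). The largest decrease was that of the ECERIFERUM 1-like gene LOC103929753, a homolog of alkane-forming wax enzymes, at -6.56 (SE 0.28, adjusted p = 2.72e-05, limma). It had 4 reads in russet skin, all in A3, so its value depends on the pseudocount, and with 1 FPKM it was -3.52, a smaller decrease than the -5.42 of LOC103963865. The latter had the highest average over all 6 libraries and is a cytochrome P450 86A gene, of the enzymes that place the terminal hydroxyl on fatty acids, at 98.8 ± 14.4 FPKM in green and 1.36 ± 0.642 FPKM in russet skin (SD, n = 3). In russet skin the most abundant of the 16 was LOC103931004, a fatty acyl-CoA reductase 3-like gene, at 62.8 ± 28.8 FPKM (SD, n = 3). The feruloyl transferase-like genes held 46.0%, 45.5% and 48.7% of the summed FPKM of the 21 genes in A1, A2 and A3, and 4.09%, 3.33% and 4.84% in B1, B2 and B3. Their share in russet skin was thus nearly the same in the 3 libraries although their sum was not, and all 6 other genes called higher also had a higher level in A1 than in A2.

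Descriptions were at hand for 1780 genes of the table, and phenylpropanoid genes on the way to feruloyl-CoA or next to it could be looked up only among these. They held 6 genes with names of such enzymes, of which 4 could be tested and 1 was called. Among the 6 was a cinnamoyl-CoA reductase-like SNL6 gene, named after an enzyme that uses feruloyl-CoA. The genes were found by name only, and their activity was not tested. The caffeoylshikimate esterase-like gene LOC103928377, of an enzyme that forms caffeate on the way to ferulate, had 5.05, 2.48 and 4.53 FPKM in A1, A2 and A3 and 0.264, 0.0958 and 0.216 FPKM in B1, B2 and B3. The lines did not overlap, and the difference was 3.80 on the log2 scale (SE 0.38, limma adjusted p = 0.000767), or 2.04 with a pseudocount of 1 FPKM and 4.36 with 0.01 FPKM. The most abundant by this lookup, LOC103927137, had 28.2 ± 4.12 and 37.5 ± 13.2 FPKM (SD, n = 3) with overlapping lines (log2 fold change -0.36, adjusted p = 0.432, limma). It is described as 4-coumarate--CoA ligase-like 5, which does not place it on the way to feruloyl-CoA. The 4-coumarate--CoA ligase 2-like gene LOC103927375 had 0.623 ± 0.195 and 0.718 ± 0.114 FPKM (SD, n = 3) in russet and green skin (log2 fold change -0.20, adjusted p = 0.734, limma). Of 4 described genes found by name phrases for the aliphatic side, 2 could be tested. The 3-ketoacyl-CoA synthase 11-like gene LOC103927574, of a fatty acid elongation enzyme, was called higher (1.08 on the log2 scale, SE 0.25, limma adjusted p = 0.0303), although leaving out A1, A3, B1 or B2 each ended this call (limma adjusted p = 0.0850 to 0.0929). The other, LOC103927748, is described as 1-acyl-sn-glycerol-3-phosphate acyltransferase 2-like and was found only through part of that name. It was not called (log2 fold change 0.06, limma adjusted p = 0.890). The only described gene of ABC transporter G type did not pass the filter.

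Markers of other cells were equally few among the described genes. Of 2 chlorophyll a-b binding protein genes, markers of green cells, LOC103926626 had 249 ± 14.3 FPKM in russet and 162 ± 16.1 FPKM in green skin (SD, n = 3; 0.62 on the log2 scale, limma adjusted p = 0.0228), and leaving out any library but B1 ended this call (limma adjusted p = 0.0532 to 0.0775). The other, LOC103927393, had 232 ± 49.4 and 154 ± 42.2 FPKM and was not called (adjusted p = 0.181). Their summed level was 422 to 526 FPKM in russet and 262 to 376 FPKM in green skin. The sieve element occlusion gene LOC103926766, a phloem marker, had 1.17 ± 0.300 and 0.648 ± 0.166 FPKM (SD, n = 3; adjusted p = 0.171). Markers of the epidermis and the xylem were not among the described genes, and the part of cell composition in the levels of the 5 genes was not tested.

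The genes whose pattern was most like the mean pattern of the 5 members were LOC103944258, LOC103930050 and LOC103951125. Likeness was measured as the root mean square difference of log2(FPKM + 0.1), centred on the mean of each gene, over the 6 libraries and 23838 genes that averaged 1 FPKM or more, and it was 0.164, 0.172 and 0.179 for these genes. The members themselves lay at 0.298 (LOC103936171), 0.393 (LOC103966555), 0.421 (LOC103936111), 0.737 (LOC103964024) and 1.08 (LOC103938506), so that 32 other genes were nearer to the mean pattern than any member. None of the 3 genes has a name in the sources used here. In B1, B2 and B3, LOC103944258 had 3, 5 and 2 reads, LOC103930050 1, 2 and 0, and LOC103951125 22, 21 and 7. The green FPKM of LOC103944258, LOC103930050 and LOC103936171 lie below the pseudocount of 0.1 FPKM, so their distances depend on it. Scaling each profile to its own spread gave 3 different genes, and 2 of those, LOC103936102 and LOC103936112, lie on the scaffold of LOC103936111. In the pathway row, the gene nearest to LOC103964024 and to LOC103936111 was LOC103943216, and the nearest to LOC103966555 and to LOC103936171 was LOC103931004, of an enzyme family that makes fatty alcohols. The nearest to LOC103938506 was LOC103965278, with 121 reads in russet and 0 in green skin. This match and that of LOC103936171 depend on the pseudocount.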

How the data were processed

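By the study's methods, the authors removed adapters and poor reads, aligned the rest with Hisat2 2.0.4 to the Chinese white pear genome at NCBI, assembled transcripts with Cufflinks 2.1.1 and deposited FPKM per gene and library, beside gene positions and lengths. The assembly version and the counting program are not given in the sources used here. Columns name libraries by A and B only, which the study gives as russet and green.

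Reads were recovered as FPKM times length over the value of 1 read, whole within 0.0001 for 74.5% of values above 0. Other lengths from 20 to 40000 bp were searched for 8439 genes, among them LOC103936111. The fit used limma 3.58.1 under R 4.3.3 (trend, two-sided, Benjamini-Hochberg adjusted p under 0.05) on log2(FPKM + 0.1) over the genes that averaged 0.1 FPKM or more. The threshold and the test stood in for the count test of the study, since FPKM values are not counts. Names of the genes looked up by description came from the first 1780 rows of an annotation table of the study, without its values. The genes of the pathway row have no description there. The names of LOC103929753, LOC103963865 and LOC103931004 therefore came from other material, for LOC103963865 the text of the study. Python 3.11.15, numpy 2.4.6, pandas 2.3.3 and matplotlib 3.10.9 were used.

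On simulated data with 200 changed genes among 29725, this fit found all 100 that differed 4-fold and 92 of the 100 that differed 2-fold, beside 16 false calls and 0 in the wrong direction. Every simulated gene had the same spread between libraries (dispersion 0.0216), and the changed genes were not drawn from those with the fewest reads. Recovery of less abundant or more variable genes was therefore not tested. The members and lists were chosen with earlier results of these data known. The text names all members, the called genes among 3 on each side, the 3 genes nearest in pattern, and in each list the largest called changes and the most abundant gene. Other genes were named after their values were seen.

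Alternatives were other pseudocounts, filters, scaling and moderation, limma voom on the recovered reads, each library left out, and the library number as a block. Deviations of same-number libraries from their line means correlated across genes at 0.195, 0.211 and 0.323, above 0.1 in each pair, so the numbers may pair the libraries. This comes from the column names, as the sample labels number the green samples otherwise. With the replicate block 6038 genes were called, against 4625 without it.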

Additional observations from a re-analysis of the deposited data

How the results depend on the processing

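Directions of the 5 genes were the same under every alternative tried. Their log2 differences depended on the pseudocount: with a pseudocount of 1 they were 4.74 for LOC103964024, 3.19 for LOC103966555, 1.66 for LOC103936171 and 3.36 for LOC103936111, and for LOC103936171 they were 5.19 with a pseudocount of 0.01 and 5.19 with limma voom. With 1 library left out they were 5.30 to 5.76 for LOC103964024, 1.98 to 2.33 for LOC103938506, 3.62 to 4.49 for LOC103966555, 3.56 to 4.20 for LOC103936171 and 4.72 to 5.17 for LOC103936111. As shares of reads, LOC103966555 held 12.4% and LOC103936111 9.64% in russet skin. Over all genes, 3162 to 3600 were called with 1 library left out and 3574 to 6038 under the other alternatives, the highest with the replicate block. Testing only genes that averaged 1 FPKM or more gave 3 calls of higher genes in the pathway row, against 6, as fewer genes were tested. Among described genes, the phenylpropanoid calls were 2 with the replicate block and 1 to 2 with 1 library left out, and the aliphatic calls 0 to 1 with 1 library left out. For the scaffolds, a set of alternatives chosen after seeing the data, higher genes on that of LOC103966555 numbered 1 with a pseudocount of 0.01 or an average of 1 FPKM or more, and 1 to 3 with 1 library left out, and lower genes 5 to 8 with 1 library left out. Lower genes on that of LOC103936111 numbered 1 with an average of 1 FPKM or more, median-ratio scaling, no trend or limma voom, and 1 to 2 with 1 library left out. The replicate block moved no other recomputed count of calls by over 1.5 times. None of the 3 genes nearest in pattern was shared (0) when profiles were scaled to their spread. Depth limits the green values of LOC103936171, which rest on 14 reads.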
